A study of Drosophila melanogaster with 4 samples.

Results

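The 9 genes described here belong to the juvenile hormone pathway of Drosophila melanogaster, and they were taken as a fixed list by name: the receptors Met and gce, the transcription factor Kr-h1, the synthesis genes Hmgs and jhamt, and the turnover genes Jheh1, Jheh2, Jheh3 and Jhe. They are 9 of 13968 protein-coding genes in the Ensembl release 115 annotation of the dm6 genome. The measurement was chromatin immunoprecipitation with sequencing (ChIP-seq) of Eip78C, an ecdysone-induced nuclear receptor of the Rev-erb type, made with an antibody to GFP. All samples formed 1 group: whole white prepupae, males and females pooled, of a transgenic line that stably expressed Eip78C with GFP fused at its C terminus, in 4 biological replicates. The labels gave neither the promoter of the transgene nor the number of animals in a pool, and whole animals mix every tissue, so a peak cannot be assigned to a cell type. No untagged or input sample was analysed here, and each list had been called against a control alignment.

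Juvenile hormone is an isoprenoid that holds insect larvae in the larval state, while ecdysone drives the moults and the onset of metamorphosis. Its carbon skeleton comes from the mevalonate pathway, which begins with acetyl-CoA and in which Hmgs makes HMG-CoA, and the methyltransferase encoded by jhamt carries out a late step of its synthesis. The hormone binds Met or its paralog gce, both bHLH-PAS proteins, and the bound receptor induces Kr-h1, a zinc-finger factor that represses metamorphic genes. The epoxide hydrolases Jheh1, Jheh2 and Jheh3 and the esterase Jhe break the hormone down.

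Each peak has a summit, the base of its highest signal, and a rank within its list by the authors' peak score, with 1 for the strongest. Of the lists used, the optimal list held the 8282 peaks that passed the authors' reproducibility test, and the pooled list and each replicate list held 30000. Replicates were compared through the strongest 8282 peaks of each. Summits are named by their distance in bases from the start of the gene, in its direction of transcription. Read depth is unknown, since the files hold peaks and no read totals.

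The windows of 200 bp at 6 summits are printed first because the results turn on them: the 3 strongest at Kr-h1, the strongest near Met, and the strongest inside and beside gce. Each reads 5′ to 3′ on the plus strand of dm6, the sequence being the NCBI Release 6 assembly. Capitals mark matches, on either strand, to AGGTCA (a nuclear receptor half-site), TAGGTCA (its form with a 5′ T, which contains it), CACGTG (the E box bound by bHLH-PAS receptor complexes), CACGCG (a variant of that E box), GAGAGAG or ATCGAT.
Kr-h1 −3487, chr2L:6079017-6079216: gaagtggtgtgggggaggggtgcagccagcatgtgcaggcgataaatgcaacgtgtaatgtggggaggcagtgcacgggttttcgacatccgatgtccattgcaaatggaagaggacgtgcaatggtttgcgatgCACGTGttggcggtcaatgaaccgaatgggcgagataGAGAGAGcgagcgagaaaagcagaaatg
Kr-h1 −1164, chr2L:6081340-6081539: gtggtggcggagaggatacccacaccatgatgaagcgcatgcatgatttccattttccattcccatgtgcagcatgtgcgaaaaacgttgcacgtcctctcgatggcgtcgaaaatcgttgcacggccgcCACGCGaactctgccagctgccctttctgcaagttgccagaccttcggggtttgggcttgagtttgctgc
Kr-h1 +5909, chr2L:6088413-6088612: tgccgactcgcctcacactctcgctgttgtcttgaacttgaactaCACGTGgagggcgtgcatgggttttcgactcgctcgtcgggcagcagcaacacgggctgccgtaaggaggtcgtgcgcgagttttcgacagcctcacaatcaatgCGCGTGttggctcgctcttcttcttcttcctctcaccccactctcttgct
Met +6974, chrX:11622999-11623198: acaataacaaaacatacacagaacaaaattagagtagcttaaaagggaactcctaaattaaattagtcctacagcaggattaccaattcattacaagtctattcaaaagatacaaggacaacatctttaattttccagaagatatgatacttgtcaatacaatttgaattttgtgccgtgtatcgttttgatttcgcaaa
gce +704, chrX:15298371-15298570: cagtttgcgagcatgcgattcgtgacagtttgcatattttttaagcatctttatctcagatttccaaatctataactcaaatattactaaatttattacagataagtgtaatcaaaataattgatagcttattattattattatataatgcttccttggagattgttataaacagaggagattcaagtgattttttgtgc
gce +25635, chrX:15323302-15323501: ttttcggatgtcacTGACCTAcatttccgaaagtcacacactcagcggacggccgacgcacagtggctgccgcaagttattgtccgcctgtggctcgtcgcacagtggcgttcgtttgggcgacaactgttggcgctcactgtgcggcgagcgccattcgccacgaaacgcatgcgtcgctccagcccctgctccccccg

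Eip78C peaks lay at 7 of the 9 genes. These 7 held an optimal summit in the gene or within 5 kb of it, against 49.2% of all protein-coding genes, and jhamt and Jhe held none. The 7 were Met, gce, Kr-h1, Hmgs and the 3 Jheh genes. A summit lay inside 3 of the 9 genes (gce, Kr-h1 and Hmgs), against 14.9% of all genes. Within 1 kb of an annotated transcription start site (TSS), 4 of 9 held a summit (gce, Hmgs, Jheh1 and Jheh3), against 22% of all genes. By class, all 3 of the receptors and Kr-h1 and 4 of the 6 enzyme genes had a summit in the window. At the TSS the counts were 1 of 3 for the receptors and Kr-h1 and 3 of 6 for the enzymes.

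Long genes hold more summits, so the counts were also set against genes of like length. Both members over 10 kb long, gce and Kr-h1, held a summit, against 74.2% of genes of that length. Both of 3 to 10 kb, Met and Hmgs, held one, against 54.2%. Among the 5 shorter members 3 did, against 41.5%. gce held 6 and Kr-h1 held 4 summits, where genes over 10 kb had a median of 2 and a mean of 3.04. In the replicates, 8, 7, 8 and 7 of the 9 members held a summit among the strongest peaks of replicates 1 to 4, where 54.3%, 49.5%, 53.5% and 56% of all genes did. In the pooled list 8 members held one, against 66.9% of all genes, and jhamt was again the exception.

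The 7 genes shared 17 distinct optimal summits, 12 at the receptors and Kr-h1 and 5 at the enzymes. Of these, 13 were met by one of the strongest peaks of every replicate under any overlap of the intervals, against 61.1% of all optimal peaks, and all 7 genes held at least 1 such summit, against 37.1% of all protein-coding genes. Where neighbouring summits lie close, 1 replicate peak can meet both. With a replicate summit required within 100 bp, a rule chosen after seeing the data, 8 of the 17 were met in every replicate, against 52.3% of all optimal summits. All 7 genes still held such a summit, against 34.9% of all genes. Of the 17 summits, 8 lay inside a member, 7 within 1 kb of a member's TSS, and 11 ranked above the median of the optimal list. In the optimal list every peak had the same −log10 q of 4.26, the top value, so peaks could be ordered only by score.

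**Figure D1:**
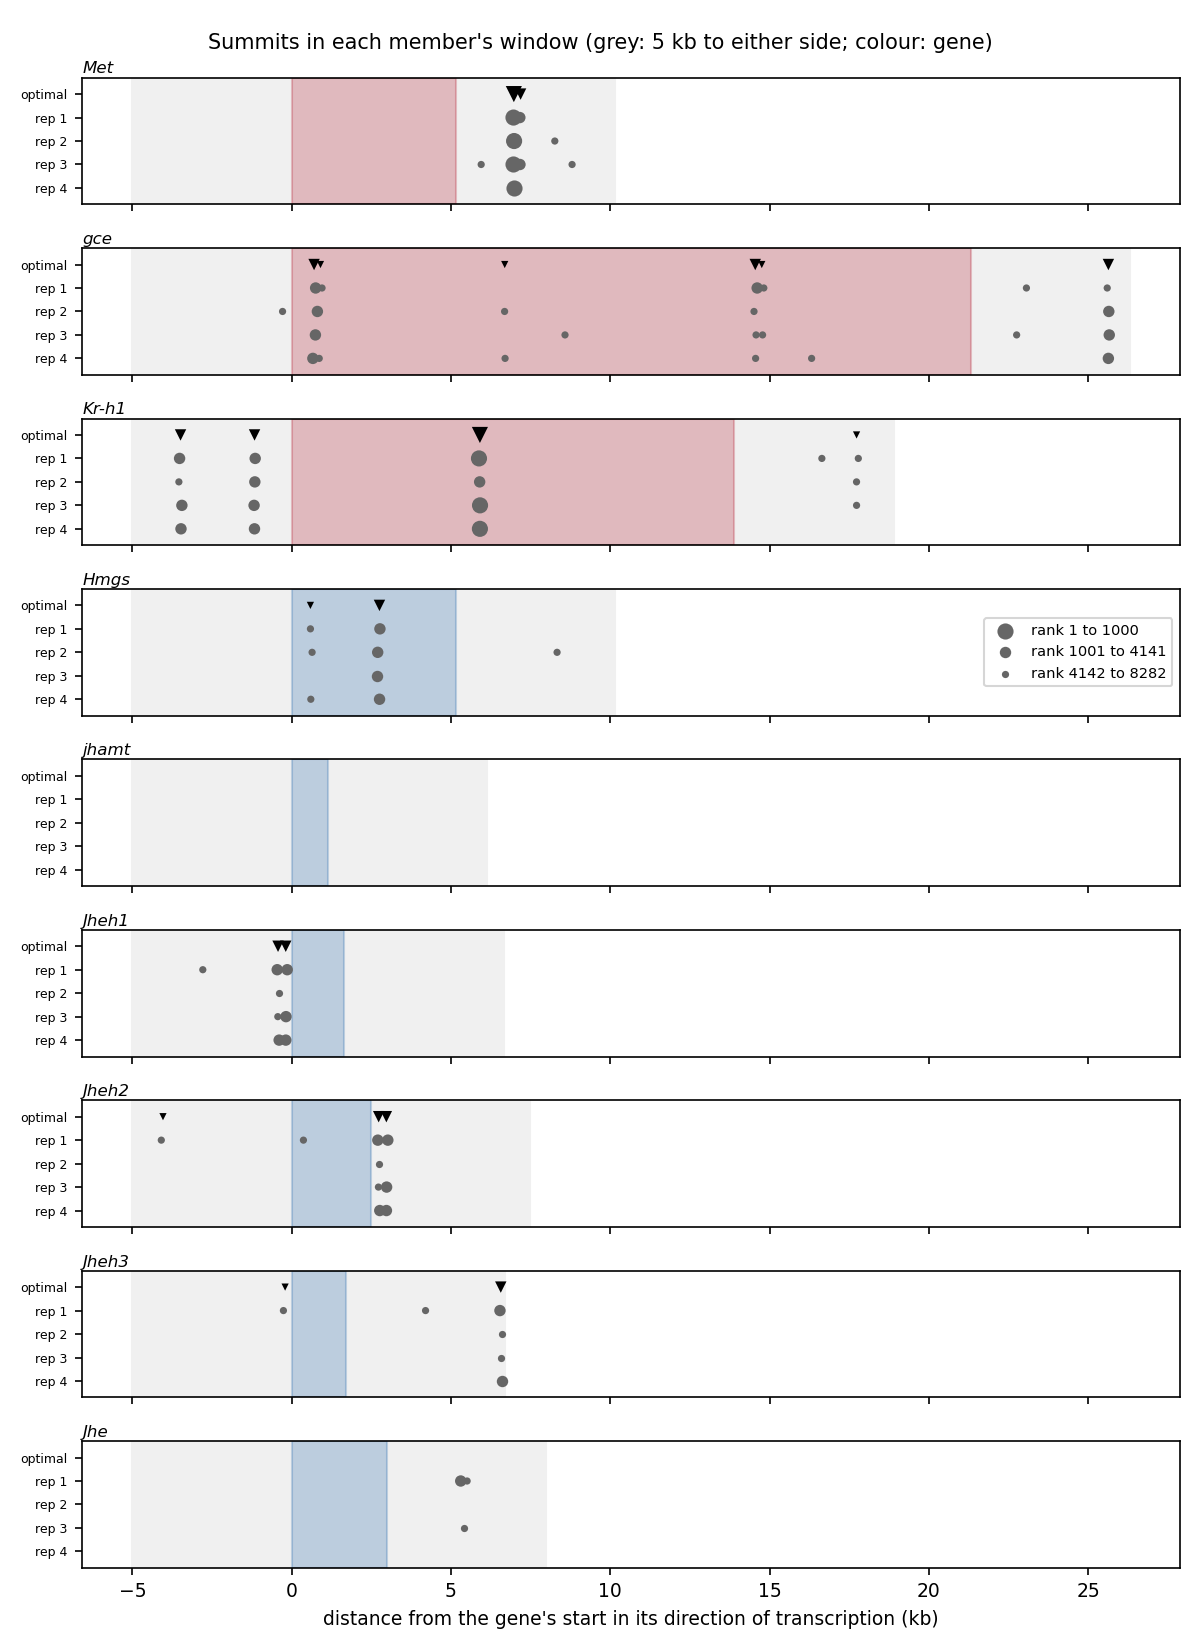
Summits in the window of each gene, by distance from the gene's start in kb (x axis), in the optimal list (triangles) and among the strongest 8282 peaks of replicates 1 to 4 (circles); larger marks are stronger ranks, colour is the gene and grey the 5 kb to either side. At Kr-h1 the same 3 positions recur in every replicate, Met has summits only past its end, and jhamt has none.

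Kr-h1, the gene that the hormone receptor induces, held the second strongest peak among the 9 genes and a set of 3 summits in and before the gene that every replicate contained. The gene (FBgn0266450) lies at chr2L:6082603-6096498 on the plus strand. The strongest summit, Kr-h1 +5909, lay in an intron at position 6088512 of 2L and 2900 bp upstream of an internal TSS, which it shares with CG45075. It ranked 739 in the optimal list and 659, 1713, 589 and 598 in replicates 1 to 4 (mean 890 ± 550, SD, n = 4). Replicates 1, 3 and 4 lay close together, and replicate 2 stood apart with a weaker rank.

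Both summits upstream of Kr-h1 also recurred. Kr-h1 −1164, in intergenic DNA with the Kr-h1 TSS as the nearest, ranked 2294 in the optimal list and 2221, 2906, 2675 and 2475 in the replicates (2569 ± 291, SD, n = 4). This was the steadiest peak of Kr-h1. Kr-h1 −3487 lay in an exon of lncRNA:CR9162, 648 bp upstream of the start of lncRNA:CR44773, and ranked 2427. Its replicate ranks were 3567, 5691, 2480 and 1442 (3295 ± 1818), a wider spread. The remaining summit, Kr-h1 +17731, lay past the gene's end and 43 bp upstream of the TSS of stai, which encodes a microtubule-regulating stathmin. It ranked 6868, and replicate 4 had it only at 15055, outside its strongest 8282.

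The 3 recurrent Kr-h1 windows share sequence. The window at +5909 holds CACGTG as well as its variant CACGCG, the one at −1164 holds CACGCG, and the one at −3487 holds GAGAGAG besides CACGTG. The E box CACGTG occurred in 3 of the 17 members' windows (Kr-h1 −3487, Kr-h1 +5909 and Hmgs +589) and in 1.68% of all 8282 optimal windows, and CACGCG in 2 of 17 and 2.60%. Both motifs stood together at +5909 and in 9 of 8282 windows (0.109%). GC-rich windows hold more of both: among the 330 windows of at least 50% GC, 3.94% held CACGTG, 12.4% CACGCG and 0.909% both.

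A longer word was found after the Kr-h1 windows had been read, so it is a description without a test. TTTTCGAC was the only word of 8 bases present in at least 3 of the 4 Kr-h1 windows, and 0.954% of all optimal windows held it. All 4 of its Kr-h1 copies had TGC before it at a distance of 5 bases, giving a pattern of 16 bases with 11 fixed. The copies are printed on their own strand, with the fixed bases in capitals.
Kr-h1 −3487, chr2L:6079088-6079103, + strand: TGCacgggTTTTCGAC
Kr-h1 −1164, chr2L:6081447-6081462, − strand: TGCaacgaTTTTCGAC
Kr-h1 +5909, upstream copy, chr2L:6088471-6088486, + strand: TGCatgggTTTTCGAC
Kr-h1 +5909, downstream copy, chr2L:6088531-6088546, + strand: TGCgcgagTTTTCGAC
This pattern was in 3 of 4 Kr-h1 windows, in no other window of the 9 genes, and in 4 of 8282 optimal windows (0.0483%). The remaining window, ranked 2435, lay on 3L, 6442 bp from the TSS of CG43098. At +5909 the copies stood on either side of the summit, from −41 to −26 and from +19 to +34 bp. The pattern occurred 143 times on the chromosome arms. In Kr-h1 and its 5 kb flanks there were 4 copies, the ones from which the pattern was built. Within 100 bp of an optimal summit lay 5 of the 143, these 4 among them.

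Met, a receptor, held the strongest peak of the 9 windows, and it lay in a neighbouring gene. The gene (FBgn0002723) spans chrX:11616124-11621280 on the plus strand, and neither the gene nor its TSS held an optimal summit. Met +6974 was 1818 bp past the end of Met, in an intron of Ptp10D, a receptor tyrosine phosphatase gene, and 1083 bp downstream of the Ptp10D TSS. It ranked 188 in the optimal list and 160, 190, 235 and 210 in the replicates (199 ± 31.7, SD, n = 4). All 4 replicates placed it high, and its spread was the narrowest of the 7 genes. A weaker summit of the same interval, Met +7186, ranked 3777. Within 100 bp of it, replicates 1, 2 and 3 had summits at ranks 2049, 23499 and 1629 and replicate 4 had none. The window at Met +6974 held none of the 6 motifs.

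The paralog gce, a far longer gene (FBgn0261703, chrX:15297766-15319074, plus strand), held 5 of its 6 summits within its own introns. The strongest of these, gce +704, lay 539 bp upstream of a gce TSS and 253 bp upstream of the start of asRNA:CR44429. It ranked 2429 in the optimal list and 2128, 2685, 1979 and 3513 in the replicates (2576 ± 694, SD, n = 4). The replicate 2 summit lay more than 100 bp from it and within 100 bp of gce +905. gce +14551 ranked 3814, with 2628, 4409, 4319 and 5581 in the replicates (4234 ± 1215). Weaker summits lay close to each of these, gce +905 at rank 5853 and gce +14756 at 6046. gce +6688 ranked 7001, and replicates 1 and 3 had it at 9794 and 9556, outside their strongest 8282.

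The strongest summit in the window of gce was not in gce. gce +25635 lay 4327 bp past the end of gce, in an intron of Top1, the gene of DNA topoisomerase I, and 190 bp upstream of a Top1 TSS. It ranked 1870, with 4944, 1512, 2280 and 1288 in the replicates (2506 ± 1680, SD, n = 4), and replicate 1 was the weakest. Its window held TAGGTCA on the minus strand, from 85 to 79 bp before the summit, the only match to that word in the 17 windows. TAGGTCA was in 1.05% of all optimal windows. AGGTCA was in 2 of 17, this one and Kr-h1 +17731, and in 4.03% of all.

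Among the synthesis genes, Hmgs carried peaks and jhamt did not. Hmgs (FBgn0010611, chr2R:16336090-16341242, plus strand) held its strongest summit, Hmgs +2756, in an intron 269 bp upstream of one of its TSSs. It ranked 2173 in the optimal list and 2425, 3302, 2310 and 1729 in the replicates (2442 ± 650, SD, n = 4). Hmgs +589 lay in the 5′ UTR, 81 bp upstream of another Hmgs TSS and 42 bp upstream of the TSS of Vha44, a vacuolar ATPase subunit gene. It ranked 5376, with 6705, 4804, 8624 and 4672 in the replicates (6201 ± 1863). Its window held CACGTG with the first base at the summit.

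The methyltransferase gene jhamt (FBgn0028841, chr2L:16365903-16367039, plus strand) had no summit in the optimal or the pooled list. No other annotated gene lay in its window. Replicates 1 and 3 had no peak there, replicate 2 had peaks at ranks 19912 and 29061, and replicate 4 at 26275 and 28423. The −log10 q of those 4 peaks, as deposited by the authors, lay between 0.151 and 0.365. The nearest optimal summit was 14430 bp upstream at rank 5773, 1155 bp from the TSS of Hyls1.

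The 3 epoxide hydrolase genes lie in a row on the minus strand of 2R, and their windows share summits. Jheh1 (FBgn0010053, chr2R:18853434-18855087) held its pair just upstream of its TSS, in an exon of asRNA:CR46485. Jheh1 −185 ranked 2453 in the optimal list, and the overlapping replicate peaks ranked 3273, 4329, 2955 and 2221 (3195 ± 875, SD, n = 4). The replicate 2 summit lay more than 100 bp from it. Jheh1 −427 ranked 3412, and with summits matched within 100 bp its replicate ranks were 3921, 4329, 6772 and 2921 (4486 ± 1635). Replicate 2 held a single peak for the pair, with its summit at the second.

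Jheh2 (FBgn0034405, chr2R:18855767-18858245) had no optimal summit of its own. Its window took in the Jheh1 pair, 495 and 253 bp past its end, and the summit before Jheh3, 4038 bp upstream of Jheh2. Replicate 1 alone had a peak in its 5′ UTR among its strongest 8282, at rank 7995 and 65 bp from its TSS. Jheh3 (FBgn0034406, chr2R:18860375-18862078) had a summit 205 bp upstream of its TSS. It ranked 7368, the weakest of the 17, and its replicate ranks were 4199, 19519, 8664 and 14087 (11617 ± 6641). Only replicate 1 had it among its strongest 8282.

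The esterase gene Jhe (FBgn0010052, chr2R:16119793-16122773, plus strand) held no optimal summit, and its replicates differed. Replicate 1 had a peak at rank 3612 located 2327 bp past Jhe, in the 5′ UTR of spin, a lysosomal transporter gene, and a second at 8090. Replicate 3 had one at rank 5470, and replicates 2 and 4 had none among their strongest 8282 peaks. The pooled list had no peak at that position; in it the only summit in the Jhe window ranked 16771 and lay 4316 bp past the gene. Of the strongest 8282 peaks, 564 (6.81%), 432 (5.22%), 523 (6.31%) and 637 (7.69%) in replicates 1 to 4 overlapped no pooled peak. The nearest optimal summit was 6729 bp past Jhe, at rank 1443.

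By their strongest peak in the optimal list, the order of the genes was Met, Kr-h1, gce, Hmgs, Jheh1 with Jheh2 (the same peak), and Jheh3, whose strongest was the Jheh1 −427 peak. By mean replicate rank Hmgs (2442) came before gce (2506). The ranks of Met and Kr-h1 did not overlap over the replicates, with Met stronger in 4 of 4 (exact sign-flip permutation test, two-sided, p = 0.125, the smallest that 4 replicates allow). Every later pair of neighbours overlapped. Kr-h1 was stronger than gce in 3 of 4 replicates (exact sign-flip p = 0.25), gce than Hmgs in 3 of 4 (exact sign-flip p = 1) and Hmgs than Jheh1 in 4 of 4 (exact sign-flip p = 0.125). No such comparison could pass 0.05 with 4 replicates. In this order the Met peak lay in Ptp10D and the gce peak in Top1. Met and Jheh2 had no optimal summit inside the gene or nearest to its TSS. By such summits alone the order was Kr-h1 (739), Hmgs (2173), gce (2429), Jheh1 (2453) and Jheh3 (7368).

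**Figure D2:**
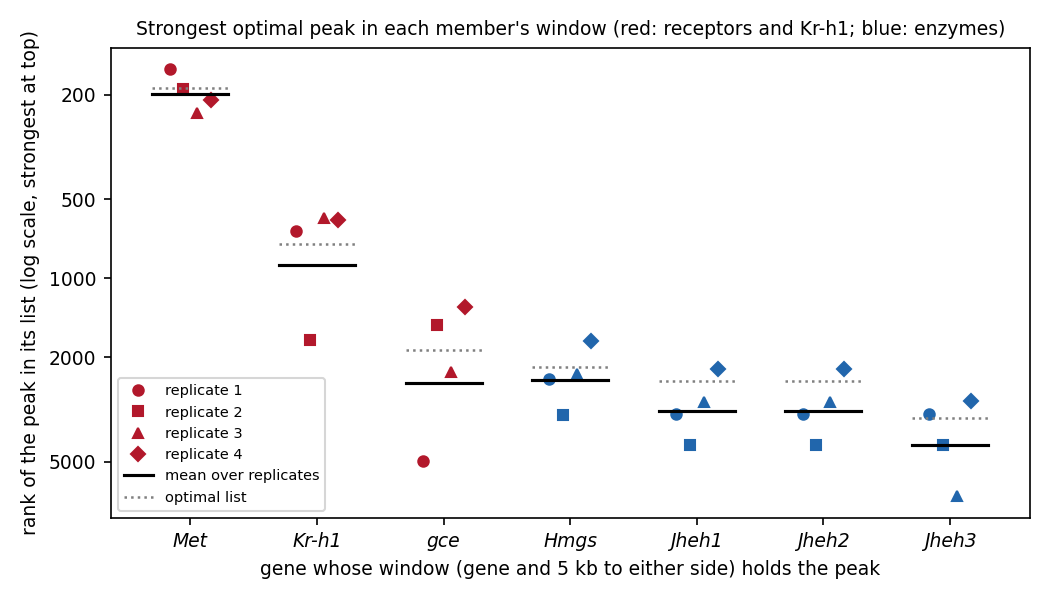
Rank of the strongest optimal peak in the window of each gene (y axis, log scale, strongest at the top) in replicates 1 to 4; black bars are means over replicates and dotted lines the optimal list. The 4 Met values, from 160 to 235, lie apart from all others, and replicate 2 is the weakest of the Kr-h1 values at 1713. The Met peak lies in Ptp10D and the gce peak in Top1.

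As a class, receptors and Kr-h1 held more summits per length of window than the enzymes did. The difference depended on the window and was absent inside the gene bodies, and the enzyme windows included those of jhamt and Jhe, without an optimal summit. Merged windows covered 70362 bp for the receptors and Kr-h1 and 57916 bp for the enzymes, and the optimal list had 12 summits (1.71 per 10 kb) at the receptors and Kr-h1 and 5 (0.863 per 10 kb) at the enzymes. Over all chromosome arms the density was 0.602. The strongest 8282 peaks of replicates 1 to 4 gave 1.85, 1.56, 1.99 and 1.42 per 10 kb at the receptors and Kr-h1, against 1.38, 0.691, 0.691 and 0.691 at the enzymes. Over the replicates, the values of the classes did not overlap. The means were 1.71 ± 0.259 at the receptors and Kr-h1 and 0.863 ± 0.345 at the enzymes, a difference of 0.842 ± 0.348 (SD, n = 4). The density was higher at the receptors and Kr-h1 in 4 of 4 replicates (exact sign-flip permutation test, two-sided, p = 0.125, the smallest possible). That test asks only whether the difference repeats over replicates at these same genes. Gene by gene, the optimal list gave 1.32 summits per 10 kb at Met, 1.92 at gce and 1.67 at Kr-h1. Among the enzymes it gave 1.32 at Hmgs, 1.72 at Jheh1, 2.404 at Jheh2, 1.71 at Jheh3 and 0 at jhamt and Jhe. The values of the Jheh genes count shared summits more than once. Enzyme genes with a summit thus lay within or above the range of the receptors and Kr-h1. The spread between genes of a class was not tested, nor was the difference without jhamt and Jhe. Inside the gene bodies alone the difference turned round, at 1.24 per 10 kb in the receptors and Kr-h1 and 1.32 in the enzymes (−0.0850, exact sign-flip p = 0.75). With 2 kb to either side it was 0.348, from 1.53 at the receptors and Kr-h1 and 1.18 at the enzymes, and positive in 3 of 4 replicates (exact sign-flip p = 0.25). With only summits inside a member or nearest to its own TSS, an alternative chosen after seeing the data, the difference was 0.340, from 1.03 at the receptors and Kr-h1 and 0.691 at the enzymes, and was positive in 3 of 4 replicates (exact sign-flip p = 0.25). That count drops both Met summits, so Met contributed none.

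**Figure D3:**
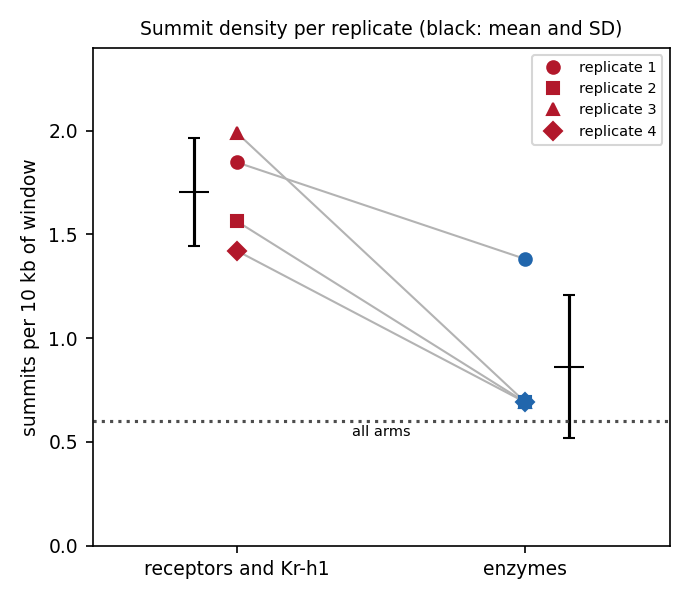
Summits per 10 kb of merged window (y axis, from 0) at the receptors and Kr-h1 (left) and the enzymes (right); grey lines join the values of each replicate, black bars are mean and SD, and the dotted line is the 0.602 per 10 kb of all arms. The receptors and Kr-h1 were higher in each replicate with 5 kb to either side, in 3 of 4 with 2 kb and in 2 of 4 for gene bodies alone, and replicate 1 held the highest enzyme value, 1.38.

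Base composition set several of these windows apart. Of the 17, 7 (41.2%) had at least 50% GC, against 330 of 8282 optimal windows (3.98%). The median was 37% in the members' windows and 34.5% in all. All 4 Kr-h1 windows were among the GC-rich ones, at 57.5% (+5909), 55.5% (−1164), 54% (−3487) and 51% (+17731), and so were gce +25635 at 62%, Hmgs +589 at 58% and gce +905 at 56.5%. The Met +6974 window had 30.5%, at the lower quartile of all windows, and gce +704 had 28%. Most GC-rich windows lay less than 1 kb before a start site, at Hmgs, Top1, stai and gce (+905, 338 bp upstream). Kr-h1 −3487 lay 648 bp before the start of lncRNA:CR44773. The windows at Kr-h1 −1164 and +5909 lay farther away, 1164 and 2900 bp upstream of the nearest TSS. The part of GC content in the peak scores was not tested.

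**Figure D4:**
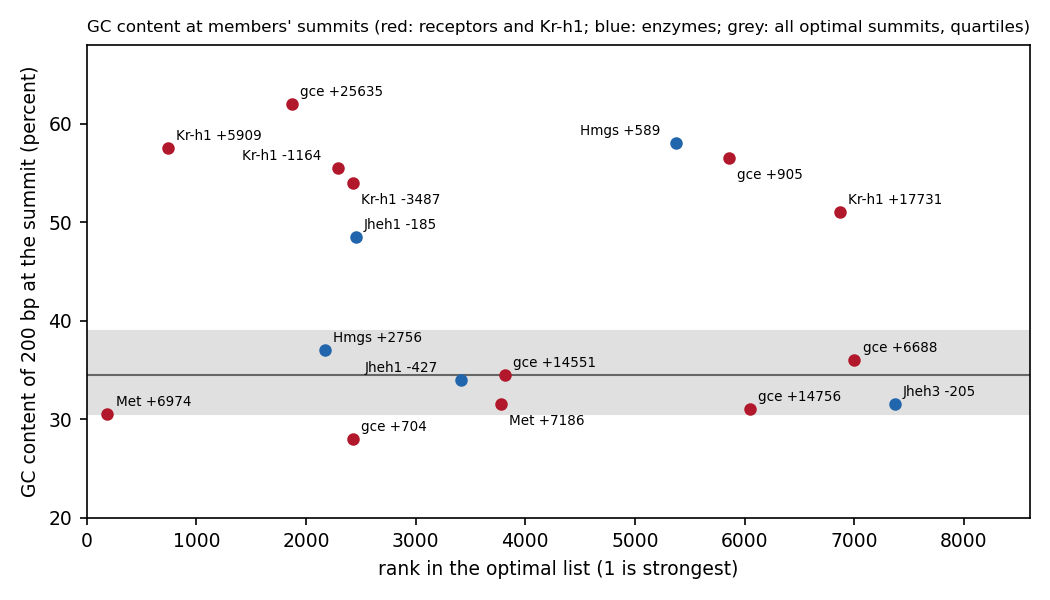
GC content of the 200 bp at each member's summit (y axis) against its rank in the optimal list (x axis); the grey band is the quartile range of all 8282 windows, 30.5 to 39%, and the line their median, 34.5%. Kr-h1 windows lie between 51 and 57.5%, and Met windows at 30.5 and 31.5%.

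ATCGAT was found in 2 of the 17 windows, gce +14551 and gce +14756, which come from 1 stretch of DNA, and in 6.18% of all, and GAGAGAG in 1 of 17 and 3.67%. A motif match is a description of letters in a window and not a binding site.

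Other genes of the pathway were counted from a list of 26, of which 7 had an optimal summit within 1 kb of a TSS, against 22% of all protein-coding genes, and 17 one in the gene or 5 kb to either side, against 49.2%. Of 8 other mevalonate genes, 2 had a summit at a TSS. One of them, Acat1, an acetyl-CoA acetyltransferase gene, ranked 1436 (mean replicate rank 1720 ± 508, SD, n = 4), 126 bp upstream. None of 3 esterase, binding or transport genes did.

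Of 5 receptor partners and chaperones 3 did. Hsp83, the fly Hsp90 that chaperones Met, ranked 605 (677 ± 337). The coactivator gene tai ranked 3742 (4463 ± 1830), and Chd64 ranked 6875 (8923 ± 2402). Of 4 hormone-responsive or Kr-h1 target genes 2 did: RNaseZ, listed under its older name JhI-1, at 5269 (6171 ± 1765), and Eip93F, which drives adult development, at 3743 (5401 ± 4027). None of 6 genes of allatostatins, neuropeptides that in other insects inhibit hormone synthesis, and of their receptors did.

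The genes with the most similar replicate ranks were found by distance over log10 rank in the 4 replicate lists. For Met, among 6200 genes, these were Mal-A3, Mal-A4 and Mal-A5, at 0.145, which share 1 peak of rank 171 with replicate ranks 145, 172, 181 and 180. For Hmgs, among 6199 genes, they were Mvb12, RhoGAP16F and scu, at 0.0833, which share 1 peak of rank 2150 with replicate ranks 2874, 3033, 2291 and 1687.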

How the data were processed

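Eip78C-GFP ChIP-seq peak lists of 4 biological replicates were used as deposited. Per the file headers in the sample records, the authors called each replicate list on its own alignment with a control alignment, the pooled list on all 4, and derived the optimal set from the pooled list and the lists of replicates 2, 3 and 4. Aligner, caller, threshold: not given in the sources used here. Scores deposited by the authors have no stated scale, so they were used as a rank within a list; the deposited −log10 q was used only where printed. The optimal set equalled the strongest pooled peaks. No 2 replicate lists shared a peak with the same interval and score. The dm3 lists were not used. Depth is unknown.

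Summits (start plus the deposited offset) were placed on dm6 with Python 3.11.15 and numpy 2.4.6 and the Ensembl release 115 annotation. A replicate peak met an optimal peak with at least 1 bp of overlap, the strongest being taken. Motifs were searched on both strands of 200 bp windows. Classes were compared by an exact sign-flip permutation test over the replicates. On simulated data, 200 of 200 genes with a summit planted in their window were recovered. That list held no other peaks, so the recovery checks only the code. All members were named, as was the gene with the nearest TSS to a summit, and each listed pathway gene with a summit within 1 kb of a TSS, except 1 that is not reported here. The members and lists were chosen with earlier results of these data known. Alternatives were other windows, peak numbers, matching rules, motif widths and leaving out each replicate.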

Additional observations from a re-analysis of the deposited data

Results flagged for a closer look

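Of 29 sets of 4 replicate values tested for 1 value far from the rest, 4 were flagged; chance alone flags about 1 in 20. The peak at Kr-h1 +5909 ranked 1713 in replicate 2, against 589 to 659 in the others. Enzyme windows held 1.38 summits per 10 kb in replicate 1, against 0.691 in each other replicate. The window of Jheh3 held 3 summits in replicate 1 and 1 in each other. The window of gce held 5 summits in replicate 2 and 6 in each other. In the 3 counts and densities the other replicates were tied, so that any difference is flagged.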

How the results depend on the processing

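No paired analysis was possible because all samples form 1 group. Of 9 members, 7 held a summit in the window; the count was 3 with the gene body alone and 4 within 1 kb of a TSS, and lay within 1.5 times under the other 8 alternatives, with 5 counting only summits inside a member or nearest to its TSS (25.7% of all genes by that rule). The density difference between the receptors with Kr-h1 and the enzymes was −0.0850 per 10 kb in gene bodies alone, the reverse direction, and positive under the other 12 alternatives, from 0.340 to 2.16; it was positive in 3 of 4 replicates with 2 kb windows, with windows counted gene by gene (0.574, exact sign-flip p = 0.25) and with own summits only; leaving out 1 replicate gave 0.690 to 0.967. It was 0.737 without gce, chosen after seeing the data. Motif counts in the members' windows are given with the share of all optimal windows of that width. In windows of 100 bp they were 0 for AGGTCA (2.05%), 0 for TAGGTCA (0.507%) and 1 for CACGCG (1.09%). They were 0 for GAGAGAG (1.44%), 0 for ATCGAT (3.08%) and 2 for CACGTG (0.580%). In windows of 400 bp they were 2 for GAGAGAG (10.2%) and 3 for CACGTG (4.21%). Narrower windows hold fewer letters. The mean rank of the Met peak was 9059 (n = 3) where at least 50% of the optimal peak had to overlap, against 199; the other 48 values of member ranks moved by less than 1 SD. The cause of the other shifts was not tested. Unknown depth limits what the lack of an optimal peak at jhamt or Jhe can show.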

Other observations

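Several pathway genes without a summit at a TSS had a strong one in the gene or 5 kb to either side, and they are named here after their values were seen. Pmvk, which encodes phosphomevalonate kinase, had 5 summits in its window, the strongest at rank 176. AstA, an allatostatin gene, had 2, the strongest at rank 200. Nup358, a nucleoporin gene linked to import of Met, had 2, the strongest at rank 332. None of these 3 genes held a summit inside its body.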
